A study of Homo sapiens with 28 samples.

Results

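HNRNPL knockdown was read in 3 of the 28 Human Gene ST1.0 arrays of the study, those whose labels name a hairpin against HNRNPL. The arrays were chosen by label, with no measured value. All cells were HEK293, a human embryonic kidney line, infected with 20 µl of a lentivirus that carries a short hairpin RNA (shRNA) in the vector pLKO under the U6 promoter. Puromycin at 2 µg/ml was then kept on the cells for 6 days. The first series of 14 arrays held 3 different hairpins each against HNRNPL, CLP1, DDX5 and DDX17, 1 hairpin against CPSF6, and 1 control array with a hairpin against the bacterial gene lacZ. HNRNPL was one of several factors that the study put through knockdown to ask which alter the levels and 3′ ends of Aire-sensitive genes. These are the genes that the regulator AIRE raises in the thymus, many but not all of them tissue-restricted. HEK293 cells lack AIRE, so the knockdown was read without it.

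HNRNPL, heterogeneous nuclear ribonucleoprotein L, binds CA-rich stretches of pre-mRNA and decides whether nearby exons are kept or skipped. Its RNA is held in check by its own protein, which promotes a splice form that the nonsense-mediated decay (NMD) pathway destroys. HNRNPL has also been tied to Mediator and to the histone methyltransferase SETD2, to the choice of poly(A) sites, and to shielding of some long 3′ UTRs from the NMD helicase UPF1. A probeset sums probes along a whole transcript and so reads the level of a gene, not its splice forms or 3′ ends.

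Levels are log2 probeset intensities, and a difference of 1 is a doubling or a halving of the signal. Each difference has n = 3 HNRNPL hairpins and is followed by ± its standard error from limma, and a gene was called where the p-value adjusted by Benjamini and Hochberg over all 18417 genes was under 0.05. Each hairpin is a separate infection, but no label ties the lacZ arrays to separate cultures. The p-values therefore cover only the spread seen between these arrays, which may be partly technical. In bulk RNA a smaller number of cells and less RNA per cell cannot be told apart.

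Several features of the arrays touch every result. Against lacZ all 3 HNRNPL arrays were set against 1 control array, which also serves the CLP1, DDX5 and DDX17 comparisons. Hairpins 1 and 2 were close to each other, with an SD over probesets of 0.23 and 1 gene over 1 log2 unit apart, while hairpin 3 had 240 and 273 genes over 1 unit from them. The median level of 189 small nucleolar and Cajal body RNAs lay 0.24, 0.55 and 1.43 above lacZ in hairpins 1, 2 and 3, and 1.47 above it in DDX5 hairpin 3 and 1.38 in DDX17 hairpin 2. Of 8 HEK293 markers 0 were called, and of 20 measured markers of blood cells, fibroblasts, keratinocytes, neurons and hepatocytes 1 was called, CD14, lower. Those 20 markers had a median level of 5.04 in lacZ, so genes near that level may lie close to background. Their median lay 0.15 to 0.01 below lacZ in the 3 hairpins. PTPRC, the pan-leukocyte marker, sat at 3.59, 3.62 and 3.79 beside 3.61 in lacZ.

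HNRNPL itself (probeset 8036613) was at 10.04 in lacZ and at 8.78, 9.11 and 9.44 in hairpins 1, 2 and 3, or 41.8%, 52.5% and 65.9% of the lacZ signal. The 9 arrays of the CLP1, DDX5 and DDX17 knockdowns ran from 9.01 through a median of 9.57 to 9.98, and CPSF6 was at 9.46. Each HNRNPL hairpin was below lacZ, but hairpins 2 and 3 lay inside the range of the 9, whose lowest arrays were hairpin 1 of DDX5 at 9.01 and hairpin 1 of DDX17 at 9.07. The difference from lacZ of -0.93 ± 0.30 did not pass (limma adjusted p = 0.129), nor did that from the mean of the other knockdowns, -0.44 ± 0.17 (adjusted p = 0.486). Without hairpin 1 the differences were -0.77 (adjusted p = 0.282) and -0.27 (adjusted p = 0.793). With 2 lacZ arrays brought to 1 scale the difference from lacZ was -1.07 and passed (adjusted p = 0.00845, range over alternatives 0.00845 to 0.403). That setting shifts the second series, gene by gene, by the first-series lacZ array minus second-series lacZ replicate 2. It thus takes those 2 arrays as 1 sample, which the labels do not state.

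The hnRNP proteins that bind RNA beside HNRNPL or in its place were not called in either comparison. Over all genes 1.84% were called against lacZ and 0.0977% against the other knockdowns, so 0 calls in a short list say little about its members. Of 33 listed 27 were measured, 16 with a positive difference from lacZ and 11 with a negative one, at a median of 0.10, beside -0.01 over all genes. HNRNPLL, the closest paralog, which HNRNPL represses, was at 7.16 in lacZ and at 7.87, 7.76 and 7.29 in the 3 hairpins. These values overlapped DDX17 knockdown at 7.71 to 7.87, and the difference from lacZ was 0.48 ± 0.27 (adjusted p = 0.475). RALY, an hnRNP of the C type, was at 9.32, 9.28 and 9.26, above all 9 other knockdown arrays (8.98, median 9.08, to 9.13) and above lacZ at 8.86. Its differences of 0.43 ± 0.18 from lacZ and 0.22 ± 0.10 from the other knockdowns did not pass (adjusted p = 0.283 and 0.568). RALY was the only 1 of the 27 above all 9 arrays, as 169 of all 18417 genes were. PTBP2, a brain relative of the polypyrimidine tract binding protein, was at 8.46, 8.48 and 7.90 beside 9.02 in lacZ, inside the range of the other knockdowns.

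**Figure D1:**
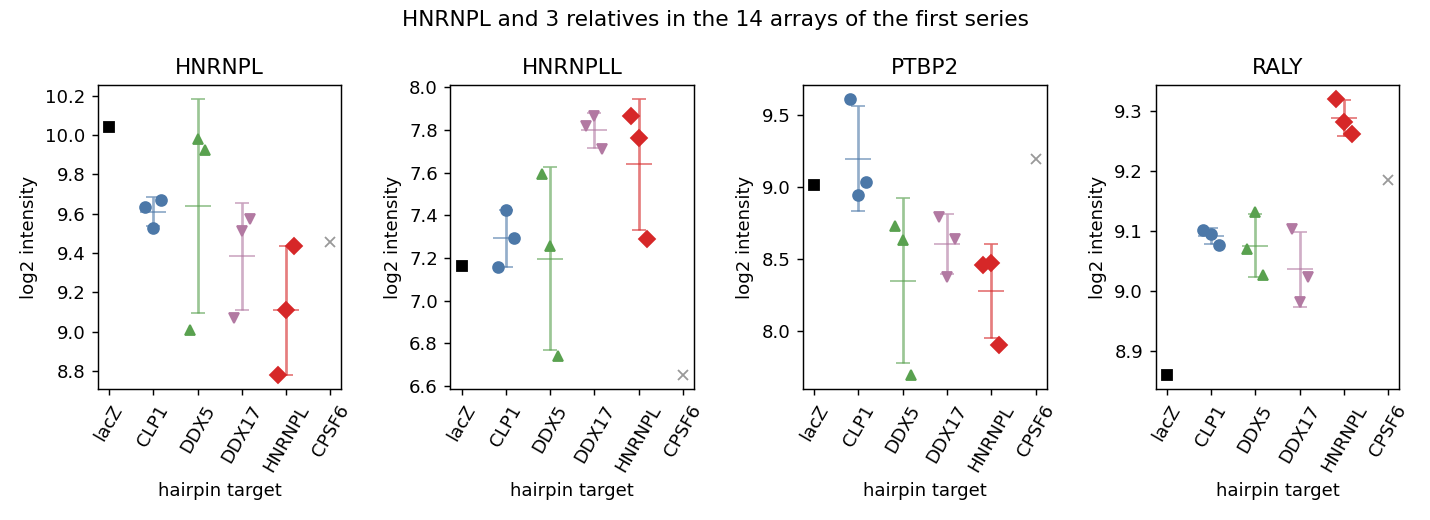
Log2 intensity of HNRNPL, HNRNPLL, PTBP2 and RALY in the 14 arrays of the first series, 1 point per hairpin, grouped by the gene the hairpin targets. HNRNPL runs from 8.78 to 9.44 in its own knockdown and overlaps DDX5 and DDX17 hairpin 1, whereas RALY (9.26 to 9.32) lies above the 9 CLP1, DDX5 and DDX17 arrays.

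Factors that work with HNRNPL or downstream of it also had 0 calls. These lists are too short to tell that from the 1.84% of all genes called against lacZ. None of 14 partners passed, among them SETD2, the Mediator subunit MED23 and IGF2BP1. None of the 14 measured of 16 transcripts known to be spliced or stabilized by HNRNPL passed. The largest difference among them was in KCNMA1, a calcium-gated potassium channel, at 5.55 in lacZ and 6.83, 7.00 and 6.21 in the hairpins (1.13 ± 0.31, adjusted p = 0.0566), and the other knockdowns covered the same range. VEGFA, whose mRNA HNRNPL stabilizes under low oxygen, differed by 0.85 ± 0.29 (adjusted p = 0.157). PTPRC, the classic HNRNPL splicing target of lymphocytes, read 3.59 to 3.79 in the hairpins and 3.61 in lacZ.

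Of 26 genes that hold or release paused RNA polymerase II, which includes the 7SK particle that binds the elongation kinase P-TEFb, 0 were called, with a median of -0.23 from lacZ and -0.04 from the other knockdowns. MEPCE, the 7SK capping enzyme, was at 8.49 in lacZ and 7.63, 7.72 and 7.75 in the hairpins (-0.78 ± 0.22, adjusted p = 0.0605). CCNT1, the cyclin of P-TEFb, differed by -1.01 ± 0.34 (adjusted p = 0.15). Of 25 core 3′ end processing genes 0 were called, with medians of -0.10 and -0.05, and CLP1 differed by -0.42 ± 0.18 (adjusted p = 0.314). Both counts of 0 stand beside 1.84% of all genes called against lacZ.

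The 15 measured NMD factors were also uncalled, beside 1.84% of all genes called against lacZ and 0.0977% against the other knockdowns. A positive difference from the other knockdowns was seen in 12 of them, beside 8124 of all 18417 genes, at a median of 0.15 beside -0.02 over all genes. Array by array the list's median lay 0.26, 0.17 and 0.10 above the mean of the 9 other knockdown arrays in HNRNPL hairpins 1, 2 and 3. DDX17 hairpin 3 was at 0.14, above HNRNPL hairpin 3, and the other 8 arrays ran from -0.27 to 0.07. UPF1, the helicase of the pathway, was at 7.75, 7.57 and 7.70, above the 9 others (7.16, median 7.32, to 7.55). SMG5, which recruits phosphatase to UPF1, was at 8.60, 8.53 and 8.65, above 8.08 to 8.50. Neither passed, UPF1 at 0.34 ± 0.11 (adjusted p = 0.333) and SMG5 at 0.25 ± 0.11 (adjusted p = 0.55) against the other knockdowns. They were the 2 of the 15 that lay above all 9 arrays, as 169 of all 18417 genes did.

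Against lacZ 338 genes were called, 1.84% of those tested, 129 higher (0.700%) and 209 lower (1.13%). In each of the 338 all 3 hairpins lay on the same side of the lacZ array. By class 319 were protein coding (124 higher and 195 lower), 9 were lncRNAs (2 higher and 7 lower), 1 was a small nucleolar RNA and 1 a microRNA gene. The same lacZ array was the lowest of the 14 arrays in 115 of the 129 genes called higher and the highest in 191 of the 209 called lower. Over the called genes the median size of the difference was 1.06 against lacZ and 0.18 against the other knockdowns, beside 0.18 and 0.098 over all genes. The count was 214 without hairpin 1, 196 without hairpin 2 and 250 without hairpin 3, 97 with the first series fitted alone, and 772 with 2 lacZ arrays on 1 scale.

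The list with the most rises was the ATF4 program, through which cells short of amino acids or under endoplasmic reticulum stress turn on amino acid uptake, synthesis and tRNA charging. Of 40 measured genes 10 rose (25%, beside 0.700% of all genes) and 0 fell, at a median of 0.85. The count was 5 with the first series fitted alone and 16 with 2 lacZ arrays on 1 scale. SLC7A3, a cationic amino acid transporter, was at 6.76 in lacZ and at 8.93, 9.02 and 8.06 in hairpins 1, 2 and 3 (1.91 ± 0.40, adjusted p = 0.0119). SLC1A4, a carrier of alanine and serine, was at 6.04 and then 7.53, 7.70 and 7.55 (1.56 ± 0.27, adjusted p = 0.00184). EIF4EBP1, the translation repressor 4E-BP1, was at 8.19 and then 9.81, 9.80 and 9.89 (1.64 ± 0.24, adjusted p = 0.000255). All 3 hairpins were above lacZ in each of the 3 genes, and the 9 other knockdown arrays overlapped them, at 7.77 to 9.48 for SLC7A3, 6.66 to 7.88 for SLC1A4 and 9.04 to 9.87 for EIF4EBP1.

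CHAC1, which degrades glutathione, was at 6.99 in lacZ and at 8.24, 8.25 and 8.36 (1.29 ± 0.33, adjusted p = 0.0373). The hormone STC2 rose by 1.24 ± 0.32 (adjusted p = 0.04) and the transcription factor CEBPB by 0.86 ± 0.20 (adjusted p = 0.0234). The calls of CHAC1 and STC2 were lost without any 1 hairpin (adjusted p up to 0.0748 and 0.0896) and that of CEBPB without hairpin 1 (0.0704). NUPR1, INHBE, SLC7A5 and ATF5 completed the 10. ATF4 mRNA was not among them, at 10.77 in lacZ and 10.69, 10.66 and 10.57 in the hairpins. DDIT3, the CHOP factor of the same program, was at 7.93 and then 8.20, 7.95 and 7.69, and differed by 0.02 ± 0.32.

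The ATF4 list lay above lacZ in the other knockdowns too, which share the lacZ array. Its median lay 0.99, 0.88 and 0.70 above lacZ in the HNRNPL hairpins, 0.85 to 0.96 in CLP1, 0.84 to 0.96 in DDX17, 0.32 to 0.95 in DDX5 and 0.51 above in CPSF6. Against the mean of the other knockdowns 0 of the 40 passed and the median was 0.00. Of 19 aminoacyl-tRNA synthetases, which ATF4 also drives, 0 were called, with a median of 0.27 from lacZ, and of 22 chaperones of the unfolded protein response 0 were called, at a median of 0.01. The share of all genes called was 1.84% against lacZ and 0.0977% against the other knockdowns.

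The promoters of the called groups were searched for the response elements of their known regulators in the RefSeq windows of GRCh38.p14, from 250 bases before to 50 bases after each gene start, on both strands. ATF4 binds with C/EBP partners at TGATGNAA, which 3.62% of all 35116 promoters hold and 21.3% of the 47 promoters of the ATF4 list. Among the 10 called members CHAC1 and SLC1A4 held it, both as its reverse complement. Sterols act through SREBP factors at TCACNCCA, held by 3.95% of all promoters and 11.1% of 27 promoters of the sterol list, with MSMO1 the only 1 among 7 promoters of the called members. Mitotic genes are held down outside mitosis at TTTGAA, held by 15.2% of all promoters and 53.1% of 49 promoters of the mitosis list, ANLN among them with adjacent matches, 1 on each strand. A match is a string in the window and not a measured binding site. The windows around the matches in called genes show where they sit, with the match on the plus strand in capitals. They were read at chr15:40953251-40953280, chr2:64989381-64989410, chr4:165327502-165327531 and chr7:36389831-36389858, where the matches begin at -209, -7, -156 and -20 from the gene start.
CHAC1: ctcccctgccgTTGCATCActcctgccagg
SLC1A4: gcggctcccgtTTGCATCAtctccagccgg
MSMO1: tctcactatccTCACTCCAtccgcggagcc
ANLN: tgaaattcaaaTTTGAAcggctgcagag

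**Figure D2:**
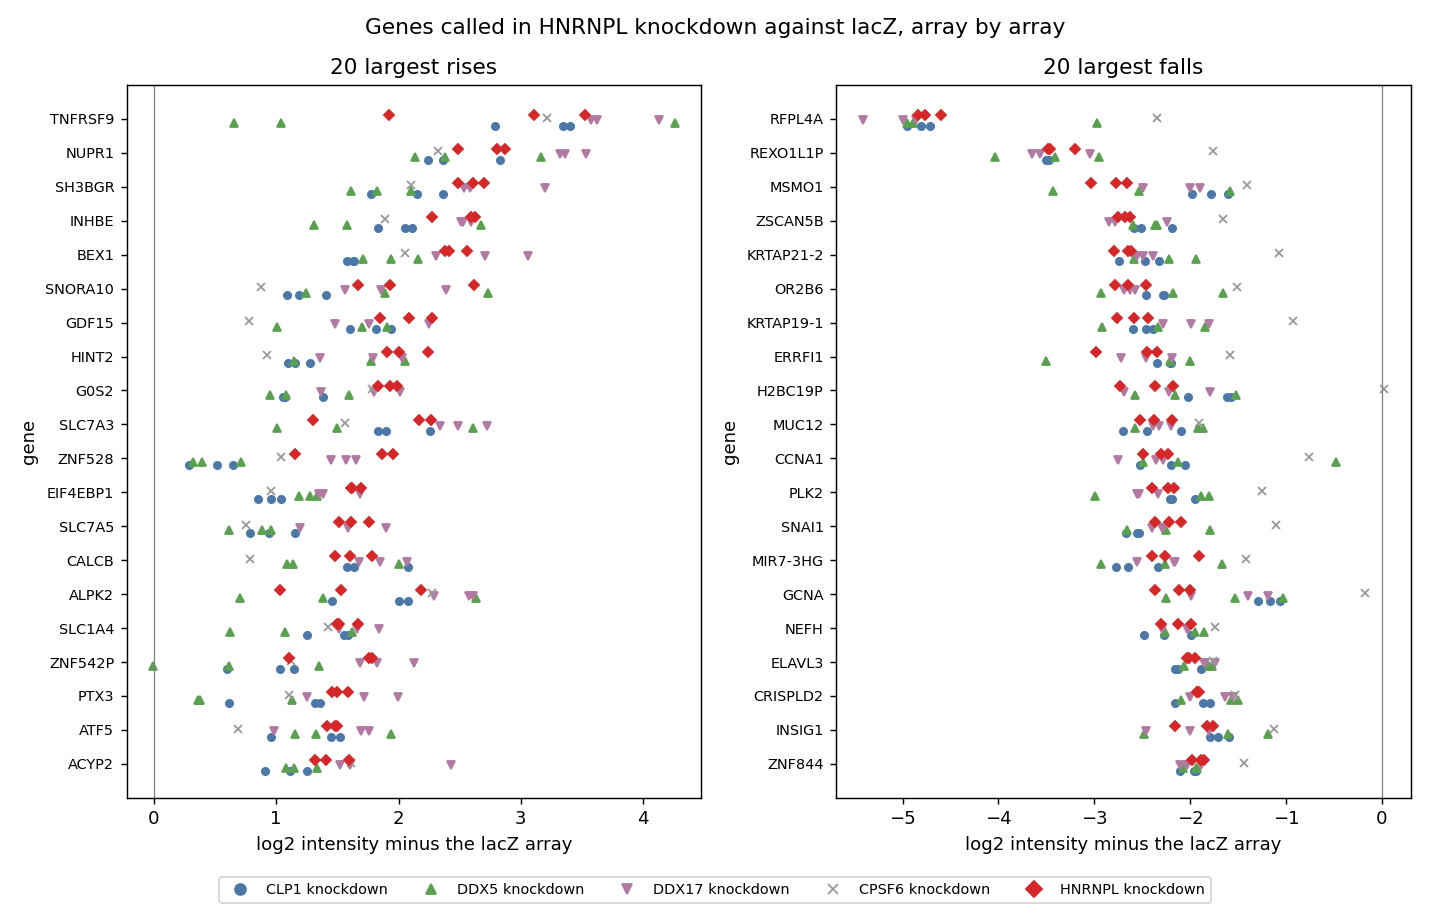
Log2 intensity minus the lacZ array for the 20 largest rises and the 20 largest falls called in HNRNPL knockdown, 1 point per knockdown array of the first series. The 3 HNRNPL points of each gene lie on 1 side of 0, and for none of the 40 do all 3 lie beyond the CLP1, DDX5 and DDX17 points.

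Other large rises lay outside the ATF4 list. G0S2, an inhibitor of the triglyceride lipase of fat droplets, was at 7.33 in lacZ and 9.32, 9.17 and 9.27 in the hairpins (1.92 ± 0.34, adjusted p = 0.00191). HINT2, a mitochondrial histidine triad protein, was at 7.70 and then 9.60, 9.70 and 9.94 (2.05 ± 0.33, adjusted p = 0.000754). For HINT2 the second-series lacZ replicates differed from each other by 0.97, replicate 3 the higher. CALCB, which encodes a calcitonin gene-related peptide, rose by 1.62 ± 0.31 (adjusted p = 0.00515). TNFRSF9, ALPK2, ZNF542P and PTX3, also among the 20 largest rises, lost their calls without hairpin 1 and without hairpin 2 (adjusted p up to 0.126, 0.138, 0.0542 and 0.0651).

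Several of the 20 largest falls had a lacZ level far above the HNRNPL, CLP1, DDX5 and DDX17 arrays alike. The neuronal RNA-binding protein ELAVL3 was at 7.24 in lacZ and at 5.23, 5.30 and 5.21 in the hairpins (-2.00 ± 0.19, adjusted p = 4.74e-07). NEFH, the heavy neurofilament chain, was at 7.46 and then 5.33, 5.16 and 5.47 (-2.14 ± 0.27, adjusted p = 4.6e-05), and the mucin MUC12 was at 8.25 and then 5.73, 5.88 and 6.06 (-2.36 ± 0.24, adjusted p = 1.82e-06). In each of these 3 genes the other 9 knockdown arrays lay with the HNRNPL hairpins, from 5.08 to 5.50, 4.98 to 5.60 and 5.55 to 6.39. KRTAP19-1, a hair keratin-associated gene, was at 8.76 in lacZ, 7.84 in CPSF6 and 6.00, 6.17 and 6.32 in the hairpins (-2.60 ± 0.30, adjusted p = 9.82e-06). SNAI1, the repressor of E-cadherin, fell by 2.23 ± 0.58 (adjusted p = 0.0453), a call lost without any 1 hairpin (up to 0.0945).

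Genes of sterol synthesis and uptake were called lower in part. Of 25 genes 5 fell (20%, beside 1.13% of all genes) and 0 rose, at a median of -0.42 from lacZ and -0.07 from the other knockdowns. Called members numbered 3 with the first series alone and 10 with 2 lacZ arrays on 1 scale. MSMO1, a methyl sterol oxidase, was at 9.01 in lacZ and 6.24, 6.35 and 5.98 in the hairpins (-2.82 ± 0.47, adjusted p = 0.0011), and the 9 others ran from 5.58 through 7.04 to 7.43. The second-series lacZ replicates were themselves 1.26 apart in MSMO1, replicate 3 the lower. IDI1, the isopentenyl diphosphate isomerase, was at 9.18 and then 7.42, 7.55 and 7.26 (-1.77 ± 0.30, adjusted p = 0.00154). MYLIP, the ligase that degrades the LDL receptor and so lowers sterol uptake, fell too, by 1.01 ± 0.22 (adjusted p = 0.0139). CYP51A1 fell by 0.99 ± 0.26 (adjusted p = 0.0499), a call lost without hairpin 1 or hairpin 3 (up to 0.147), and INSIG1 was the fifth. The list's median lay 0.40, 0.38 and 0.60 below lacZ in the 3 HNRNPL hairpins, and 0.23 to 0.75 below it in the 9 others.

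Replication-dependent histone genes, whose mRNAs end in a stem loop instead of a poly(A) tail, fell in 8 of 57, with 0 higher. Among all genes 1.13% were called lower. The list's median was -0.30 from lacZ and -0.07 from the other knockdowns, beside -0.01 and -0.02 over all genes. H1-6, the testis linker histone, was at 6.14 in lacZ and 4.64, 4.66 and 4.86 in the hairpins (-1.42 ± 0.17, adjusted p = 1.51e-05). H2BC17 was at 7.24 and then 5.48, 5.34 and 5.68 (-1.74 ± 0.26, adjusted p = 0.000322), and the others were H2BC14, H4C9, H3C12, H2BC8, H2AC17 and H2BC1. The 9 other knockdown arrays held H1-6 at 4.52 to 4.84 and H2BC17 at 5.16 to 6.36, so lacZ stood alone in both. Histone genes of a cluster are near-identical copies, and their probes may share signal. Without hairpin 1 or without hairpin 2 the count was 5. With a filter that kept genes above the median level it was 0, but genes below that level were removed and not tested. That 0 is therefore not a count of lost calls.

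Mitotic genes had mostly negative differences in both comparisons, with few calls. Of 45 measured genes 2 fell against lacZ (4.44%, beside 1.13% of all genes) and 0 rose. A negative difference was seen in 41, at a median of -0.55, beside 9542 of all 18417 genes and a median of -0.01. Against the other knockdowns 0 passed, 41 were again negative, and the median was -0.28, beside 10293 of all 18417 genes and a median of -0.02. KIF20A, a kinesin of the central spindle, was at 9.08 in lacZ and 7.81, 7.27 and 7.07 in the hairpins (-1.70 ± 0.42, adjusted p = 0.034). ANLN, anillin, which builds the cleavage furrow, was at 9.83 and then 8.56, 8.70 and 8.12 (-1.38 ± 0.32, adjusted p = 0.0251). It was at 8.39 through 9.40 to 9.52 in the other 9 arrays (-0.72 ± 0.19, adjusted p = 0.205). KIF20A lost its call against lacZ without hairpin 2 or hairpin 3 (up to 0.0885) and ANLN without hairpin 3 (0.0678).

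Relative to the mean of the 9 others, the mitotic median was -0.14, -0.19 and -0.50 in HNRNPL hairpins 1, 2 and 3. The CLP1 arrays were at 0.12 to 0.19, DDX5 at 0.15, 0.13 and -0.61, DDX17 at 0.10, -0.06 and -0.19, CPSF6 at 0.23 and lacZ at 0.38. HNRNPL hairpin 3 and DDX5 hairpin 3, the lowest, were also the arrays with the highest small nucleolar RNA medians, but DDX17 hairpin 2, nearly as high in those RNAs, was at only -0.06. Hairpins 1 and 2 of HNRNPL overlapped DDX17 hairpin 3. The part that those RNAs have in the mitotic values was not tested. Called mitotic genes against lacZ numbered 0 without HNRNPL hairpin 3, 0 with the first series alone, 6 with quantile normalization and 4 without the 3 arrays highest in small nucleolar RNAs.

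Of 28 growth factor feedback and immediate early genes 3 fell, 10.7% beside 1.13% of all genes, and ERRFI1, an inhibitor of the EGF receptor, was at 10.39 in lacZ and 8.04, 7.94 and 7.41 in the hairpins (-2.59 ± 0.38, adjusted p = 0.000269), inside the other knockdowns' 6.88 to 8.39. PLK2 and FOSB were the others, FOSB with a call lost without hairpin 1 or hairpin 2 (up to 0.123). Of 44 DNA replication genes 2 rose, MCM2 and TYMS (4.55% beside 0.700%), and the list median was 0.00. MCM2 lost its call without any 1 hairpin and TYMS without hairpin 1 or hairpin 2 (adjusted p up to 0.081 and 0.0691). Of 40 SR proteins and splicing regulators 1 rose (2.5%, beside 0.700% of all genes). It was KHDRBS3, an RNA-binding relative of Sam68, at 6.61 in lacZ and 8.17, 7.86 and 7.45 in the hairpins (1.21 ± 0.24, adjusted p = 0.0059). DDX17 knockdown held KHDRBS3 at 7.83 to 8.02, and CLP1 and DDX5 at 6.87 to 7.21.

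The other lists had 0 to 2 called members each, beside 1.84% of all genes called. For 28 p53 targets, 18 heat shock genes and 29 hypoxia and glycolysis genes 1 member each passed (3.57%, 5.56% and 3.45%), GDF15 and HSF1 higher and ALDOC lower. Of 65 cytosolic ribosomal protein genes 2 rose (3.08%), at a median of 0.18, and of 78 oxidative phosphorylation genes 1 rose, COX5B, at a median of 0.30. None passed among 33 interferon and RNA sensing genes, 11 fatty acid synthesis genes and 14 housekeeping genes, the last at a median of -0.26. Of 77 box H/ACA and Cajal body RNAs 1 rose, SNORA10, at a median of 0.79, and of 112 box C/D RNAs 0, at 0.26. SNORA10 differed by 1.24 between the second-series lacZ replicates.

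**Figure D3:**
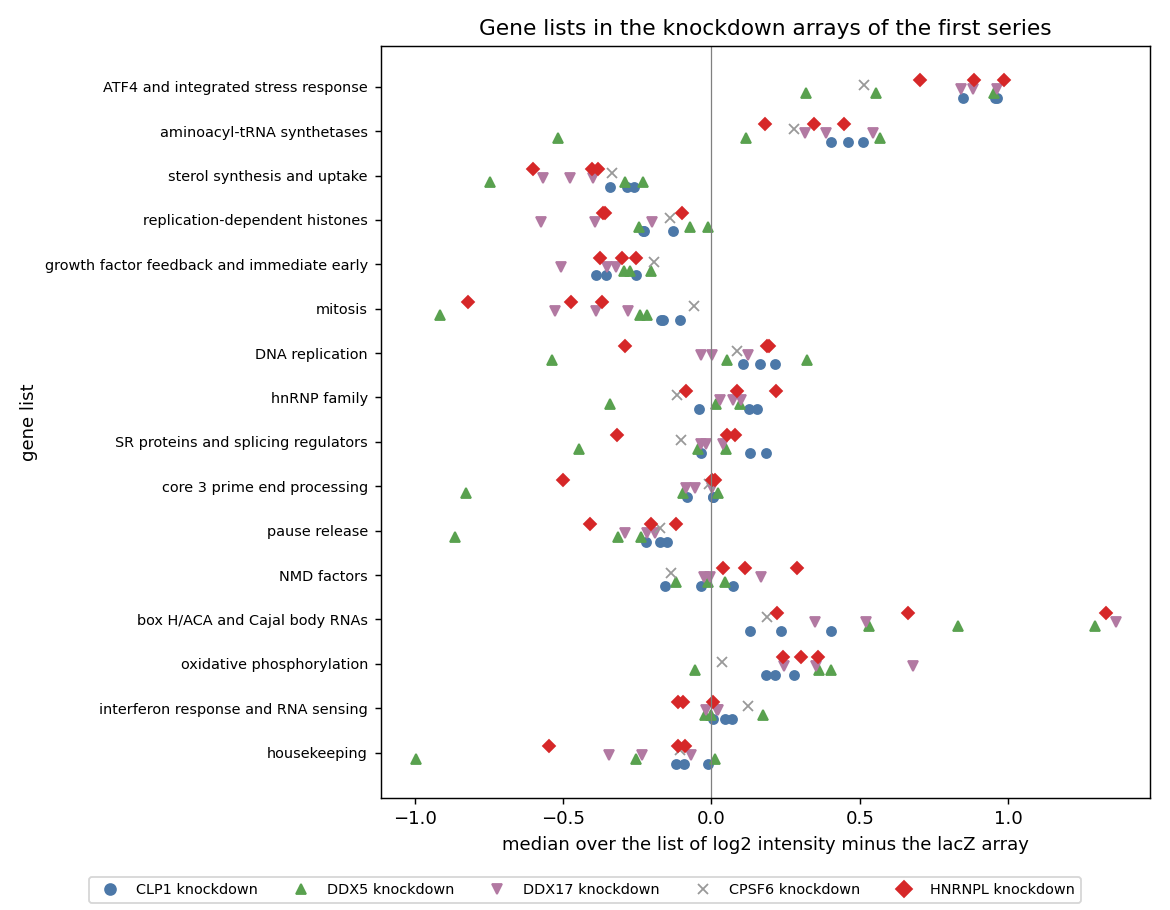
Median over each gene list of log2 intensity minus the lacZ array, 1 point per knockdown array of the first series. HNRNPL points for the ATF4 list (0.70 to 0.99) overlap those of the other knockdowns, with hairpin 1 just above the highest of them, DDX17 hairpin 3 at 0.96. For mitosis the HNRNPL points run from -0.82 to -0.37.

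Since 1 lacZ array stands behind all 338 calls, they were set beside the 9 arrays of the other knockdowns. In 319 of them the HNRNPL hairpins overlapped those 9. In 19 (5.62%) all 3 hairpins lay beyond all 9 in the direction of the call, 14 higher and 5 lower, beside 241 genes (1.31%, 169 above and 72 below) with that arrangement among all genes. Both measures use the same HNRNPL arrays, so the shares are a description. The 19 were singled out after their values were seen.

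CIRBP, a cold-inducible RNA-binding protein, was at 8.39 in lacZ and at 9.55, 9.40 and 9.80 in the hairpins (1.19 ± 0.27, adjusted p = 0.0223). The 9 others ran from 8.55 through 9.07 to 9.37, so hairpin 2 cleared them by little, and the call was lost without hairpin 3 (0.0561). POLR3D, a subunit of RNA polymerase III, was at 7.28 and then 8.09, 8.13 and 8.29, above 7.49 to 7.94 (0.89 ± 0.19, adjusted p = 0.0157). RBKS, ribokinase, was at 4.54 and then 5.29, 5.17 and 5.03, above 4.77 to 4.94 (0.62 ± 0.12, adjusted p = 0.00428). POLR3D and RBKS kept their calls without any 1 hairpin, but RBKS lay near the median level of the markers of other cell types, 5.04 in lacZ.

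MCM2, a subunit of the replicative helicase, was at 7.83 in lacZ and at 8.61, 8.60 and 8.57, just above 7.98 to 8.54 (0.77 ± 0.19, adjusted p = 0.0373), a call lost without any 1 hairpin (up to 0.081). HSF1, the heat shock regulator, was at 8.20, 8.26 and 8.39, above 7.79 to 8.09, and rose by 0.73 ± 0.19 (adjusted p = 0.0498), with its call lost in the same way (up to 0.12). The protease inhibitor SERPINE2 rose by 0.91 ± 0.23, the electron transfer flavoprotein subunit ETFB by 0.87 ± 0.22, and the lipase ABHD12 by 0.72 ± 0.17. The rest of the 14 were TKT, FCGBP, DPYSL3, EFCAB13, YIF1A and ZDHHC22. Lower than all 9 were ANKRD42 (-0.79 ± 0.17, adjusted p = 0.012), KLHL14, AGAP2, TXNDC2 and the microRNA gene MIR181B1.

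Among 186 microRNA precursor genes, at a median level of 4.67 in lacZ, the only called gene was MIR181B1 (0.538%, beside 1.84% of all genes). It was at 5.44 in lacZ, 4.46, 4.65 and 4.60 in the HNRNPL hairpins, and 4.79 through 4.98 to 5.28 in the 9 others (-0.87 ± 0.23, adjusted p = 0.0465). CPSF6, at 4.49, lay with the HNRNPL hairpins, the call was lost without any 1 hairpin (up to 0.111), and the second-series lacZ replicates were 1.02 apart. The array reads precursor and host RNA with random primers, not the mature microRNA. The mature arms that RefSeq gives for this gene are printed with the seed, bases 2 to 8, in capitals, since the seed sets which mRNAs they pair with.
hsa-miR-181b-5p: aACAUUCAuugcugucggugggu
hsa-miR-181b-3p: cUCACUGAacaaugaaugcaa

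**Figure D4:**
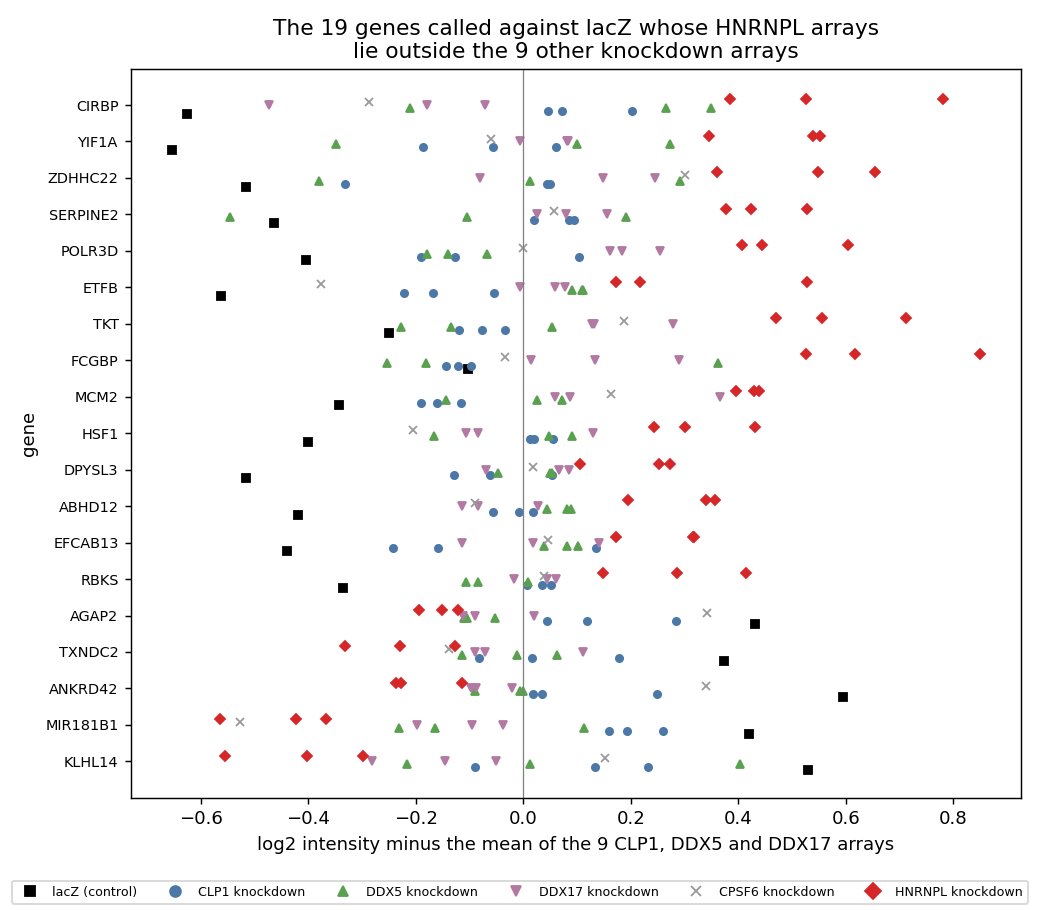
Log2 intensity minus the mean of the 9 CLP1, DDX5 and DDX17 arrays for the 19 genes called against lacZ whose 3 HNRNPL hairpins lie beyond all 9. The lacZ array (control) lies away from the HNRNPL points, as for CIRBP (8.39 in lacZ beside 9.40 to 9.80).

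The second comparison set the 3 HNRNPL hairpins against the mean of the CLP1, DDX5 and DDX17 knockdowns and does not use lacZ. It called 18 genes, 0.0977% of those tested, 12 higher (0.0652%) and 6 lower (0.0326%), and 1571 genes were under an unadjusted p of 0.05. Of the 18, 8 were also called against lacZ in the same direction, which is 44.4% of the 18 and 2.37% of the 338. The share of all genes called against lacZ was 1.84%. Both comparisons use the same 3 HNRNPL arrays, so this overlap is not a second, independent test. Those 8 were CD99, ZNF808, ZNF528, ZNF160, NALCN, TKT and FCGBP, higher, and GATM, lower. In 6 of the 18 the HNRNPL hairpins lay beyond all 9 other arrays and in 12 they did not, beside 241 of all genes (1.31%) that lay beyond them. The 18 were picked by a difference between these same arrays, so that count is a description.

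CD99, a cell surface glycoprotein, gave the strongest call. It was at 7.75, 7.84 and 7.66 in the HNRNPL hairpins and 6.36 in lacZ (1.18 ± 0.13 from the other knockdowns, adjusted p = 4.37e-05). CLP1 and DDX5 knockdowns held it at 5.81 to 6.43, but DDX17 hairpins were at 7.69, 7.58 and 7.48 and CPSF6 at 7.30. HNRNPL differed from DDX17 alone by 0.17 ± 0.16 (adjusted p = 0.841). In the second series, normalized apart, knockdown arrays read 7.45 to 8.68 and the lacZ arrays 6.04 and 6.26.

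The same split held for 5 zinc finger genes of chromosome 19, a family with many repressors. ZNF808 was at 6.40, 6.27 and 5.89 in the HNRNPL hairpins, 6.15 to 6.24 in DDX17, 4.81 to 5.05 in CLP1 and DDX5 and 5.37 in lacZ (0.83 ± 0.11, adjusted p = 0.00065). ZNF528 was at 6.26, 6.17 and 5.46, with DDX17 at 5.76 to 5.96 and CLP1 and DDX5 at 4.59 to 5.02 (0.82 ± 0.13, adjusted p = 0.00447). ZNF83, ZNF700 and ZNF160 rose by 0.83 ± 0.16, 0.73 ± 0.15 and 0.72 ± 0.13 (adjusted p = 0.0307, 0.0494 and 0.0191). Against DDX17 alone the 5 differences ran from -0.01 to 0.14, ZNF808 being the one below 0, and none passed. Probes of this family can share signal between members.

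NALCN, a sodium leak channel, was at 6.18, 6.06 and 5.52 in the HNRNPL hairpins, 5.62 to 6.07 in DDX17, 6.23 in CPSF6 and 4.66 to 5.01 in lacZ, CLP1 and DDX5 (0.70 ± 0.12, adjusted p = 0.00787). GATM, which makes the precursor of creatine, ran the other way, at 4.97, 5.22 and 4.59 in HNRNPL, 4.81 to 5.39 in DDX17, 5.47 to 6.78 in CLP1 and DDX5 and 6.15 in lacZ (-1.04 ± 0.18, adjusted p = 0.0121). HNRNPL and DDX17 did not differ beyond their spread in NALCN (0.12 ± 0.15) or GATM (-0.15 ± 0.22).

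Lower in HNRNPL than in DDX17 as well were ZNF117 and ERV3-1, the latter the envelope gene of an endogenous retrovirus. ZNF117 was at 5.92, 6.10 and 5.39 in the HNRNPL hairpins, 6.75 in lacZ, 7.53 in CPSF6 and 5.95 through 7.22 to 7.73 in the 9 others (-1.30 ± 0.19, adjusted p = 0.00175). ERV3-1 was at 6.02, 6.26 and 5.55 beside 6.74 in lacZ and 6.25 through 7.29 to 7.77 (-1.20 ± 0.19, adjusted p = 0.00447). Of the 9 others, DDX5 hairpin 3 was the lowest in both, at 5.95 and 6.25, and overlapped the HNRNPL hairpins, while the remaining 8 lay above them. Against DDX17 alone the differences were -1.66 ± 0.23 and -1.52 ± 0.23 (adjusted p = 0.0017 and 0.00501), and against DDX5 alone neither passed (-0.83 ± 0.23 and -0.75 ± 0.23). The genes overlap on chromosome 7 and RefSeq lists a read-through transcript of the pair, so they may be 1 signal. Against lacZ neither passed (-0.95 ± 0.32 and -0.79 ± 0.33, adjusted p = 0.154 and 0.277).

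In 6 genes none of the 9 CLP1, DDX5 and DDX17 hairpins overlapped HNRNPL. PTGER2, a receptor of prostaglandin E2, was at 5.09, 5.09 and 4.85, below 5.21 through 5.91 to 6.09, with lacZ at 5.61 (-0.72 ± 0.11, adjusted p = 0.00392). CAD, the enzyme that opens pyrimidine synthesis, was at 8.24, 8.22 and 7.99, above 7.14 through 7.55 to 7.74, with lacZ at 7.44 (0.64 ± 0.12, adjusted p = 0.0317). TKT, transketolase of the pentose phosphate pathway, was at 9.12, 9.04 and 9.28, above 8.34 through 8.53 to 8.84, with lacZ at 8.31 (0.58 ± 0.12, adjusted p = 0.0416). In all 3 genes the hairpins stood to 1 side of lacZ as well. The PTGER2 hairpins lay near the median level of the markers of other cell types, 5.04 in lacZ.

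FCGBP, a mucin-like protein that binds IgG, was at 6.21, 6.12 and 6.44, above 5.34 through 5.50 to 5.96 (0.66 ± 0.12, adjusted p = 0.0124). ATP6V1E2, a proton pump subunit, was at 6.18, 5.68 and 5.62, above 4.84 to 5.46 (0.62 ± 0.12, adjusted p = 0.0416). The lncRNA LINC00652 was at 6.05, 5.26 and 5.32, above 4.17 to 5.01 (0.85 ± 0.16, adjusted p = 0.0191). In ATP6V1E2 and LINC00652 hairpin 1 stood highest, and LINC00652 lost its call without it (0.523). The other knockdowns held LINC00652 below the median level of the markers of other cell types, 5.04 in lacZ. The ion channel subunit KCNJ8 and gliomedin, GLDN, fell by 0.56 ± 0.11 and 0.53 ± 0.09 (adjusted p = 0.0317 and 0.00683), each with 1 hairpin inside the range of the others, and differed from lacZ by -0.20 ± 0.19 and -0.16 ± 0.15.

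**Figure D5:**
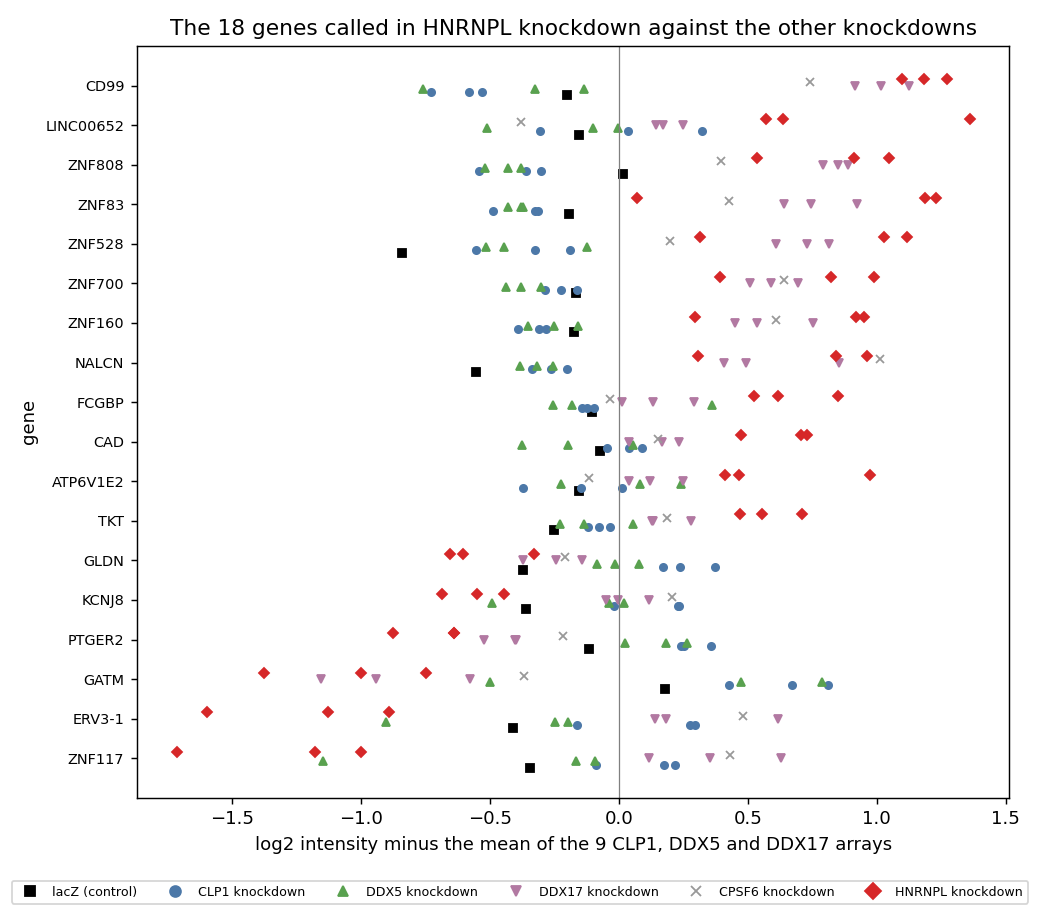
Log2 intensity minus the mean of the 9 CLP1, DDX5 and DDX17 arrays for the 18 genes called against the other knockdowns, 1 point per array of the first series. For CD99 the HNRNPL (7.66 to 7.84) and DDX17 (7.48 to 7.69) arrays lie together above CLP1 and DDX5, whereas for ZNF117 the DDX17 arrays lie on the opposite side of HNRNPL.

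These calls leaned on single arrays and on the comparison group. Without HNRNPL hairpin 1 the count was 4, without hairpin 2 it was 9 and without hairpin 3 it was 20. CD99, ZNF808, ZNF117 and PTGER2 kept their calls without any 1 array, and the other 14 lost theirs without at least 1. Without DDX5 hairpin 3, whose genes deviated most from their group mean (SD over genes 0.42), the count was 232. Without CLP1 in the comparison group it was 3, without DDX5 it was 6 and without DDX17 it was 81. Set against 1 knockdown at a time, HNRNPL differed in 120 genes from CLP1 (0.652%), in 28 from DDX5 (0.152%) and in 11 from DDX17 (0.0597%).

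Few genes of the study's mouse Aire-sensitive list were called in either comparison. That list holds 728 genes of mouse medullary thymic cells, only those with a proximal poly(A) site, and 543 were measured here under the same human symbol. For its HEK293 knockdowns the study instead took genes raised by Aire transfection of those cells, and tested them by rank. The counts here are for a different gene set and do not repeat that test. Against lacZ 3 were called higher and 4 lower, or 1.29% beside 1.84% of all genes, at a median of 0.01. The higher ones were INHBE, RAPGEF3, an exchange factor that senses cyclic AMP (1.10 ± 0.20, adjusted p = 0.00246), and SMPX, a small muscle protein (0.77 ± 0.16, adjusted p = 0.00903). The lower ones were PLK2, the Wnt antagonist FRZB (-1.08 ± 0.23, adjusted p = 0.0134), the carboxypeptidase CPM and the bile acid enzyme BAAT. CPM lost its call without any 1 hairpin (up to 0.0696) and BAAT without hairpin 1 or hairpin 2 (up to 0.079). Against the other knockdowns 1 was called, KCNJ8 (0.184% beside 0.0977% of all genes), and the median was -0.03 beside -0.02 over all genes.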

How the data were processed

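RNA of HEK293 cells was amplified with random primers and hybridised to Human Gene ST1.0 arrays. The deposited values are linear intensities per probeset, which the authors made with robust multi-array averaging in aroma.affymetrix, each series apart. They were taken to log2 with no pseudocount. Probesets with 1 gene symbol were kept, the brightest per gene, which gave 18417 genes.

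Groups came from the sample labels. limma 3.58.1 in R 4.3.3 fitted all 28 arrays, with 1 coefficient for each targeted gene and 1 for the series, moderated with an intensity trend (17 residual degrees of freedom). HNRNPL was set against the first-series lacZ array and against the mean of the CLP1, DDX5 and DDX17 knockdowns. The first-series lacZ array and second-series replicate 2 differed by an SD of only 0.07 and may be 1 sample, counted once within a series. Calls are Benjamini-Hochberg adjusted p-values under 0.05 over all genes. The fit was run on simulated data with independent noise. Those data hold no array-wide shifts and no offset of the control array, so the run cannot speak to either.

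The genes named are the target, the 20 largest rises and 20 largest falls against lacZ called with 3 of 3 hairpins alike, every gene called against the other knockdowns, and called members of gene lists. Members, lists and motifs were chosen with earlier results of these data known. Lists were written from general knowledge, except the Aire-sensitive genes, taken from the study's supplement and matched by symbol, and were described by counts and medians with no test of a list. The alternatives were the first series alone, quantile normalization, median centring, a pseudocount of 16, no trend, a replicate block, a filter on low values, the mean of all probesets, 2 lacZ arrays on 1 scale, each array left out in turn, and other comparison groups. Promoter and microRNA sequences are from RefSeq, GRCh38.p14. Single probes, and so distal 3′ UTR ratios, were not used here. Other steps used Python 3.11.15, pandas 2.3.3 and matplotlib 3.10.9.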

Additional observations from a re-analysis of the deposited data

How the results depend on the processing

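Against lacZ the 338 calls became 97 with the first series fitted alone (94 of them among the 338) and 772 with 2 lacZ arrays on 1 scale. They became 145 with a filter on low values that kept 9208 of the 18417 genes. Of the named rises and falls, 21 kept their call there, 1 lost it and the rest were not tested. In a setting chosen after seeing the data, 601 were called without the 3 arrays highest in small nucleolar RNAs. Leaving out 1 HNRNPL hairpin gave 196 to 250. The share called higher was 38.2%, and 53.1% with the filter and 50.4% without the 3 arrays. HNRNPL itself passed against lacZ only in 2 settings, at -1.07 with 2 lacZ arrays (adjusted p = 0.00845) and at -1.09 without the 3 arrays (0.0324).

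Against the other knockdowns the 18 calls became 1 with the filter, which kept 9208 genes. Of the 18, 1 kept its call there, 2 lost theirs and the rest were not tested. The 18 became 3 with the first series alone, 3 without CLP1 in the comparison group, 6 without DDX5 and 81 without DDX17. They became 31 without the 3 arrays highest in small nucleolar RNAs, and 120, 28 and 11 against CLP1, DDX5 or DDX17 alone, settings also chosen after seeing the data. Leaving out 1 array gave 4 to 232. ZNF808 reversed, to -0.012, against DDX17 alone. The causes were not tested.

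Of the 40 named rises and falls against lacZ, 472 gene and setting pairs kept direction and call, 30 lost the call and 0 reversed. For the 18 genes against the other knockdowns the counts were 352, 136 and 1. Same-numbered deviations of HNRNPL correlated across genes at 0.63, 0.23 and 0.83 with DDX5, -0.48, 0.19 and -0.39 with CLP1 and 0.17, -0.37 and -0.21 with DDX17. HNRNPL hairpin 2 correlated better with DDX5 hairpin 1 (0.68) than with its own number, so the numbers were not taken as pairs. A replicate block gave 336 and 20 calls, and TNFRSF9 against lacZ (adjusted p = 0.0503), TKT against the other knockdowns (0.0553) and ZNF700 against the other knockdowns (0.0571) lost theirs. The limits are 1 lacZ array behind every difference from lacZ and probesets that cannot tell splice forms apart. A further limit is the HNRNPL probeset, whose difference did not pass, with hairpins at 41.8% to 65.9% of its lacZ signal. The study had chosen these hairpins by quantitative PCR, which was not repeated here. The number of arrays limits the precision.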
